A study of Homo sapiens with 24 samples.

Results

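The genes described here are 10 members of the Krüppel-like factor (KLF) and specificity protein (SP) family, namely KLF2, KLF3, KLF4, KLF5, KLF6, KLF7, KLF9, KLF10, KLF13, and SP1. They were chosen by name, as members of the family whose DNA motif is known from promoters, and they make up 10 of the 20098 protein-coding genes annotated on chromosomes 1 to 22 and X. A peak was counted for a gene when its summit lay in the gene body or within 50 kb of it, and all 10 genes had such a peak in at least 1 library.

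The data are ChIP-seq peak lists for S100A8 and S100A9, small calcium-binding proteins that have no conventional DNA binding domain. The cells are MCF-10A, an established line of nontransformed breast epithelial cells, and carry ER-Src, an Src oncoprotein fused to the ligand-binding domain of the estrogen receptor. All groups carry this fusion, and each also carries a stable retroviral (pLHCX) transgene for S100A8 or S100A9 with a C-terminal Flag tag. The question addressed is where the tagged proteins sit on chromatin before and after Src is switched on.

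In the TAM groups, cells were kept for 24 hours in 1 μM 4-hydroxytamoxifen, which activates ER-Src and transforms the cells, and in the EtOH groups for the same 24 hours in ethanol, the vehicle. For S100A8-Flag there were 2 EtOH and 3 TAM libraries, and for S100A9-Flag 3 per treatment. The labels call them biological replicates. The proteins are expressed from a viral promoter beside the cells' own S100A8 and S100A9, so that the libraries follow the tagged copies only. Chromatin was fixed with protein-protein cross-linkers before formaldehyde, and a peak can therefore mark DNA that the protein touches through a partner.

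One library stood apart from the rest in its peaks near the 10 genes: replicate 3 of S100A9-Flag in TAM had 75. Its list was the longest, with 40735 peaks, but that length did not itself stand apart. Results without this library are given where it matters.

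Proteins of the KLF/SP family bind GC boxes and CACCC boxes through C2H2 zinc fingers at their C-terminal end, and differ in the N-terminal parts that recruit activators or repressors. KLF2, KLF4, KLF5, KLF6, and KLF7 are mostly known as activators and KLF3 as a repressor that binds CtBP, whereas KLF9, KLF10, and KLF13 share a domain that binds SIN3A. SP1 is the broadly expressed activator of many housekeeping promoters. In breast epithelium, KLF4 and KLF5 are known for their parts in differentiation and in proliferation.

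Windows from 7 of the sites near these genes are printed first. Sites of KLF10, and sites with their summit in an annotated untranslated exon, were not available for printing. The main promoter sites of KLF4, KLF5, and KLF6 are therefore not among them. Each window is the summit of a site with up to 100 bp to either side, read from GRCh37 and given 5′ to 3′ on the strand of the named gene, and annotated untranslated exons were trimmed away. Capitals mark exact matches on either strand to a GC box (CCCCGCCC), a CACCC box (CCCCACCC), an ETS motif (CGGAAG), an AP-1 motif (TGACTCA), a CREB motif (TGACGTCA), a CEBP motif (TTGCNNAA), a STAT motif (TTCNNNGAA), or the CTCF motif of the study's logo. The GC box and the CACCC box differ at 1 position and cannot match the same letters.
KLF13 promoter site, chr15:31618540-31618740, plus strand: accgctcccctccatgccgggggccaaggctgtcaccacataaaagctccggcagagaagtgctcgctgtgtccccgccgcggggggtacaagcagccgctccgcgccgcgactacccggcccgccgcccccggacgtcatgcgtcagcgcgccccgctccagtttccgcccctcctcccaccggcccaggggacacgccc
KLF13 intron site, chr15:31689494-31689694, plus strand: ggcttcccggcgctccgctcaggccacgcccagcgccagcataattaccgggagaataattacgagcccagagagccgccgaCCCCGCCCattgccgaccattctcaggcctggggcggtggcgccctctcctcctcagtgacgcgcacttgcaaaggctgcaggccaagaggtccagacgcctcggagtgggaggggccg
KLF9 upstream site, chr9:73034128-73034328, minus strand: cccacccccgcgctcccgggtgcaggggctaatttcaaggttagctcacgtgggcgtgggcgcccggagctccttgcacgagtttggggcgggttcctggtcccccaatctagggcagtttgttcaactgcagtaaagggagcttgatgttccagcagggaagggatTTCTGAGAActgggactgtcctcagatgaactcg
KLF6 downstream site, chr10:3797330-3797530, minus strand: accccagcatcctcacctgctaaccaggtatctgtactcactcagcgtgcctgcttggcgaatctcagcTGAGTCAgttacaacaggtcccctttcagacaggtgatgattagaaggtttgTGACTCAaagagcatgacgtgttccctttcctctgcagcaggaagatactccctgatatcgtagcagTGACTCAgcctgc
KLF2 downstream site, chr19:16441329-16441529, plus strand: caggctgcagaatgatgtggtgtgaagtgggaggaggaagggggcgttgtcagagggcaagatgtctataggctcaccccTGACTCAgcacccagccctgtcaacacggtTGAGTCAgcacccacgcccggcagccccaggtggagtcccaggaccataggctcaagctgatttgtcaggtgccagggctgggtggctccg
KLF3 promoter site, chr4:38665703-38665817, plus strand: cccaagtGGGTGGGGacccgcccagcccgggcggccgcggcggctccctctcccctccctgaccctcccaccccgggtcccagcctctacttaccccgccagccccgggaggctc
SP1 downstream site, chr12:53845676-53845876, plus strand: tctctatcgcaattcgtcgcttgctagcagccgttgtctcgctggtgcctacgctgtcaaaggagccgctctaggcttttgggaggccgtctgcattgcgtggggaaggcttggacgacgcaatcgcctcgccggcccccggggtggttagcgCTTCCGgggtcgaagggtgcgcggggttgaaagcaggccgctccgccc
The KLF13 promoter window holds none of these motifs, and the KLF13 intron window holds a GC box. The windows beyond the ends of KLF6 and KLF2 hold 3 and 2 AP-1 motifs, and the KLF3 promoter window holds a CACCC box. A match describes the letters of a window and nothing more, and a window without a match says nothing about a factor.

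Numbers of peaks near the 10 genes were compared first. With peaks of q ≤ 1e-07 (−log10 q of at least 7), the S100A8-Flag EtOH libraries had 11 and 8 peaks near the 10 genes, and the S100A9-Flag EtOH libraries had 5, 5, and 6. In TAM, the S100A8-Flag libraries had 47, 37, and 38 and the S100A9-Flag libraries 46, 40, and 75. Every TAM library thus lay above every EtOH library. These totals are given without a test, since the genes were chosen with earlier results in view.

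The libraries themselves differed in the same direction. The EtOH lists held 4327 and 4609 peaks (S100A8-Flag) and 3595, 1853, and 4596 peaks (S100A9-Flag). The TAM lists held 29381, 24117, and 21518 (S100A8-Flag) and 25494, 23994, and 40735 (S100A9-Flag). The number of reads behind a list is not known, so that fewer peaks and a lower sequencing depth cannot be told apart. Per 10000 peaks of a library, the 10 genes had 19.4 ± 6.49 peaks in EtOH (SD, n = 5) and 17.0 ± 1.22 in TAM (SD, n = 6). The EtOH libraries ranged from 13.1 to 27.0 around the TAM libraries, which ranged from 15.3 to 18.4. These totals were not tested, and KLF13 alone makes up 6.53 to 13.9 per 10000 of them in EtOH and 2.35 to 5.11 in TAM. The library with 75 peaks near the genes had 18.4 per 10000.

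**Figure D1:**
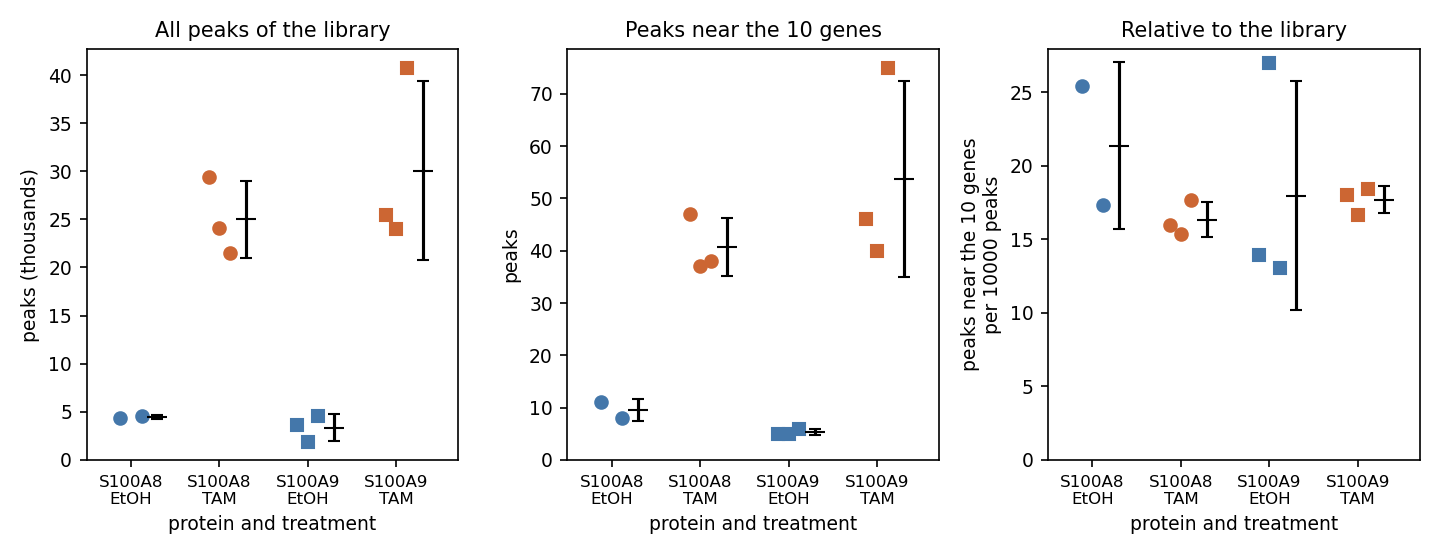
Peaks per library at q ≤ 1e-07 (left), peaks near the 10 genes (middle), and the latter per 10000 peaks of the library (right), each point 1 library, bars mean ± SD for groups of 2 or 3 libraries. TAM libraries had 37 to 75 peaks near the genes and EtOH libraries 5 to 11, whereas both had between 13.1 and 27.0 per 10000.

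Between 9 and 10 of the 10 genes had a peak in each TAM library, and 3 or 4 in each EtOH library. Over all protein-coding genes, 82.2 ± 3.83% had a peak in a TAM library (SD, n = 6) and 34.1 ± 7.97% in an EtOH library (SD, n = 5). KLF13 was the only 1 of the 10 genes with a peak in all 11 libraries. The share of all genes with a peak in all 11 libraries is not given. KLF13 also had the widest window in which peaks were counted, 208.8 kb, against 103.9 to 199.7 kb for the others.

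The treatment was then tested gene by gene. The statistic was the TAM minus EtOH difference in mean log2(peaks + 1), averaged over both proteins, in an exact permutation test of the libraries within each protein (200 arrangements, two-sided), with p values adjusted over the 18764 genes that had a peak in any library. At an adjusted p of at most 0.05, 7 of the 10 genes had more peaks in TAM, against 65.3% of all genes tested, and none had fewer, whereas with the 1853 strongest peaks of each library none passed and KLF10, KLF13, and SP1 lay below 0. That alternative called none of 12747 genes tested, with 0 of the 10 genes and 163 of all genes at an unadjusted exact permutation p of at most 0.05, and limma on the numbers at q ≤ 1e-07 called all 10, as it did 83.8% of all tested genes. The median difference was 1.61 over the 10 genes and 1.36 over all tested genes on this log2(peaks + 1) scale, which understates the change of genes with few peaks. The 7 of 10 is close to the share of all genes. In 5 of the 10 genes (KLF2, KLF6, KLF9, KLF13, and SP1), every TAM library exceeded every EtOH library of the same protein, against 44.2% of all tested genes. All 10 genes passed the filter on low values, but KLF2, KLF3, and KLF7 had no EtOH peak and passed through TAM libraries alone, so that their direction was set by the filter. KLF2 and KLF3 are among the 7 genes called, and KLF2 is among the 5, and for them these calls say no more than that TAM libraries had peaks.

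**Figure D2:**
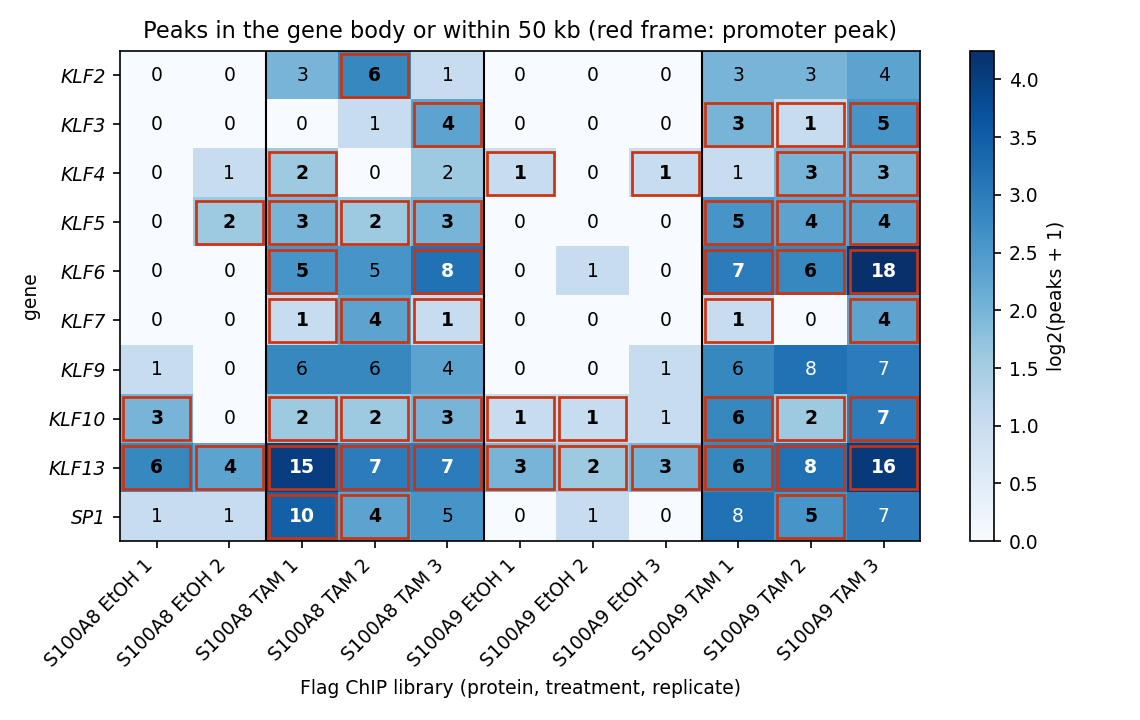
Number of peaks (printed in each cell, shaded as log2(peaks + 1)) in the body of each gene or within 50 kb of it in each of the 11 libraries, with red frames where a promoter peak is among them. KLF13 has 2 to 6 peaks in each EtOH library, KLF10 has peaks in 4 of the 5, KLF4 and SP1 in 3 each, and the other genes in at most 2.

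KLF6, which is known as a gene induced by tissue injury, showed the largest difference among the 10. It had no peak in the S100A8-Flag EtOH libraries, and 5, 5, and 8 in the S100A8-Flag TAM libraries. For S100A9-Flag, it had 0, 1, and 0 peaks in EtOH and 7, 6, and 18 in TAM. The difference was 2.90 (exact permutation p = 0.01, adjusted p = 0.0226), with every TAM library above every EtOH library. An unadjusted p of 0.01 is the smallest that 200 arrangements can give.

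KLF9, a target of glucocorticoid and thyroid hormone receptors, had 1 and 0 peaks with vehicle and 6, 6, and 4 with TAM in the S100A8-Flag libraries. The S100A9-Flag libraries had 0, 0, and 1 without and 6, 8, and 7 with TAM, and the treatments did not overlap. Its difference was 2.40 (exact permutation p = 0.01, adjusted p = 0.0226), and 0.79 with every deposited peak.

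SP1 had 1 peak in each S100A8-Flag EtOH library and 10, 4, and 5 in TAM. With S100A9-Flag, it had 0, 1, and 0 in EtOH and 8, 5, and 7 in TAM. Its difference was 2.19 (exact permutation p = 0.01, adjusted p = 0.0226), and the treatments did not overlap. The window of SP1 also covers the promoter of PCBP2, and every EtOH peak counted for SP1 lies at the site there. It shares peaks with the window of SP7, the osteoblast factor on its 5′ side.

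KLF2, known for its induction by shear stress in endothelium, had no peak in any EtOH library. It had 3, 6, and 1 peaks in the S100A8-Flag TAM libraries and 3, 3, and 4 in those of S100A9-Flag. Its difference was 2.02 (exact permutation p = 0.01, adjusted p = 0.0226), in a direction that the filter had set.

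KLF13, known as a regulator of RANTES in T lymphocytes, had the most EtOH peaks of the 10 genes, and the widest window. S100A8-Flag libraries had 6 and 4 peaks there with vehicle and 15, 7, and 7 with TAM, and S100A9-Flag libraries 3, 2, and 3 with vehicle and 6, 8, and 16 with TAM. The difference was 1.13 (exact permutation p = 0.01, adjusted p = 0.0226). It turned to −1.09 (exact permutation p = 0.07, adjusted p = 1) where each library was cut down to its 1853 strongest peaks, and over all alternatives its adjusted p ran from 0.00225 to 1.

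KLF5 and KLF3 passed by a small margin. KLF5 had a difference of 1.74 (exact permutation p = 0.02, adjusted p = 0.0364) and KLF3 one of 1.48 (exact permutation p = 0.03, adjusted p = 0.0459). KLF5 had 2 peaks in the second S100A8-Flag EtOH library, none in the other EtOH libraries, and 2 to 5 in each TAM library. KLF3 had no EtOH peak and 0 to 5 peaks in the TAM libraries, with 0 in the first of S100A8-Flag. Without any 1 of the TAM libraries or of the S100A9-Flag EtOH libraries, the call of KLF3, KLF5, or both was lost, with adjusted p values of 0.0542 to 0.0895, and 5 or 6 of the 10 genes were then called. The differences were then 1.70 to 1.81 for KLF5 and 1.18 to 1.76 for KLF3, and the 120 or 100 arrangements left give a smallest p of 0.0167 or 0.02.

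The remaining genes did not pass. KLF7, a factor of neuronal development, had 0 peaks in every EtOH library, 1, 4, and 1 in the S100A8-Flag TAM libraries, and 1, 0, and 4 in the S100A9-Flag TAM libraries (difference 1.27, exact permutation p = 0.04, adjusted p = 0.0571). KLF10, which transforming growth factor β induces early, had 3 and 0 peaks with vehicle and 2, 2, and 3 with TAM in S100A8-Flag libraries. The S100A9-Flag libraries had 1 each with vehicle and 6, 2, and 7 with TAM, and the difference was 1.09 (exact permutation p = 0.04, adjusted p = 0.0571). KLF4, one of the factors used to reprogram cells to pluripotency, had 0 or 1 peak in each EtOH library and 0 to 3 in each TAM library (difference 0.78, exact permutation p = 0.16, adjusted p = 0.189).

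**Figure D3:**
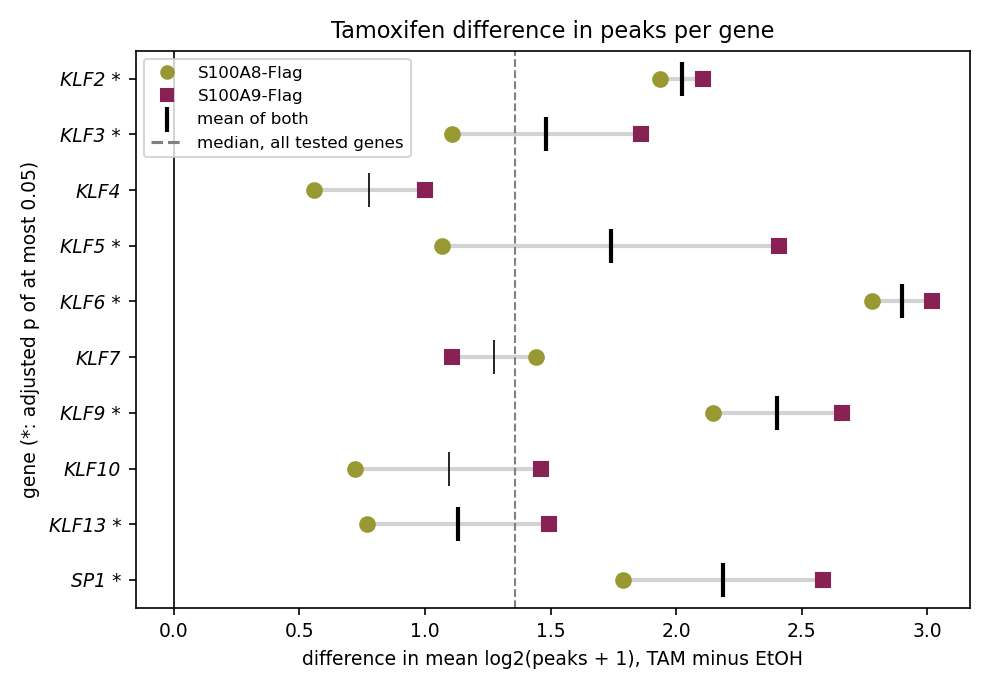
TAM minus EtOH difference in mean log2(peaks + 1) for each gene, for S100A8-Flag (circles), S100A9-Flag (squares), and their mean (bars, thick with an asterisk where the adjusted p is at most 0.05), with the median of all tested genes as a dashed line. Means ran from 0.78 for KLF4 to 2.90 for KLF6 around the median of 1.36, and KLF10, KLF13, and SP1 lay below 0 when every library was reduced to 1853 peaks.

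The same test was applied to peaks per 10000 peaks of the library, since TAM lists are longer. None of the 10 genes passed at an adjusted p of at most 0.05, nor did any of the 18764 genes, for which the smallest adjusted p was 0.086. At an unadjusted exact permutation p of at most 0.05 there were 4 of the 10 genes and 4109 of all genes. Of these 4 genes, KLF2, KLF3, and KLF7 had no EtOH peak and could only come out higher, and the other was KLF13. For genes to pass at 0.01, the smallest p possible, at least 3753 had to reach it, and 2182 did. Passing at a larger p would have required more genes. With limma on the same values, 1337 genes passed as higher and 395 as lower in TAM, and KLF2 (higher in TAM, adjusted p = 0.0456) and KLF13 (lower in TAM, adjusted p = 0.00959) were among them.

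Relative to its library, KLF13 had fewer peaks in TAM. For S100A8-Flag, it had 13.9 and 8.68 peaks per 10000 in EtOH and 5.11, 2.90, and 3.25 in TAM. For S100A9-Flag, it had 8.34, 10.8, and 6.53 in EtOH and 2.35, 3.33, and 3.93 in TAM. Every TAM library lay below every EtOH library of its protein, as in 2.96% of all tested genes (difference −6.43, exact permutation p = 0.01, adjusted p = 0.086). Its number of peaks thus rose with TAM less than the length of the lists did. KLF2 had 0 in EtOH and 0.465 to 2.49 per 10000 in TAM, with every TAM library above every EtOH library, as in 8.67% of all tested genes (difference 1.23, exact permutation p = 0.01, adjusted p = 0.086). Since KLF2 passed the filter through TAM libraries alone, it could not have come out lower, and neither this test nor its call by limma shows a change relative to the library. The other 8 genes overlapped between treatments on this scale, and the differences of KLF4 and KLF10 were −0.704 and −2.16 per 10000.

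S100A9-Flag was next compared with S100A8-Flag within each treatment, by exact permutation of the protein labels (200 arrangements, two-sided). Under TAM, the 10 genes had 40.7 ± 5.51 peaks per S100A8-Flag library and 53.7 ± 18.7 per S100A9-Flag library (SD, n = 3 each). Without replicate 3, the S100A9-Flag TAM libraries had 46 and 40, within the range of those of S100A8-Flag. Under vehicle, these means were 9.5 ± 2.12 (SD, n = 2) and 5.33 ± 0.577 (SD, n = 3). Differences in mean log2(peaks + 1) between the proteins ran from −0.34 for KLF13 to 0.45 for KLF6. The exact permutation test called 0 of the 10 genes and 0 of the 18764 tested (adjusted p = 1 in each). At an unadjusted p of at most 0.05 there were 0 and 165, and limma also called none. By limma, 817 genes had an unadjusted p of at most 0.05. These data therefore do not separate the 2 proteins at any of the 10 genes, which does not show that they bind alike. The TAM difference of KLF5 was 1.34 larger for S100A9-Flag (2.41) than for S100A8-Flag (1.07) in a test of the interaction (exact permutation p = 0.04, adjusted p = 1). KLF5 had 0 and 2 peaks in the S100A8-Flag EtOH libraries, so that this value depends on 1 library. No interaction passed over all genes by exact permutation (471 at an unadjusted p of at most 0.05), and limma was not run for the interaction.

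A peak counts as a promoter peak when its summit is at most 1500 bp upstream or 250 bp downstream of any annotated transcription start site (TSS) of the gene. In TAM libraries, 39 of the 60 combinations of a gene and a library had a promoter peak (65%), against 41.3% over all protein-coding genes. In EtOH libraries there were 11 of 50 (22%), against 10.8%. Per library, 6 or 7 of the 10 genes had a promoter peak in TAM and 2 or 3 in EtOH. The shares are descriptions without a test, and a library's calls are not independent of the length of its list. When each library was reduced to its 1853 strongest peaks, there were 8 of 60 (13.3%) in TAM and 7 of 50 (14%) in EtOH, against 4.91% and 5.94% over all genes.

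At least 1 TAM library had a promoter peak at 9 of the 10 genes, against 62.9% of all genes, and at least 1 EtOH library at 4 (KLF4, KLF5, KLF10, and KLF13), against 30.6%. All 6 TAM libraries had one at 3 genes (KLF5, KLF10, and KLF13), against 15.4%. With the annotated gene start as the only TSS, they had one at KLF10 and KLF13 alone, against 8.87% of all genes.

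KLF13 had a promoter peak in all 11 libraries, counting every annotated TSS of the gene. The share of all genes with a promoter peak in all 11 is not given. The strongest promoter peak of each TAM library had a fold enrichment over input between 11.4 and 15.4 (mean 13.4 ± 1.48, SD, n = 6) and its summit 102 to 328 bp upstream of the nearest TSS. In EtOH, fold enrichments ran from 8.19 to 13.2 (mean 10.3 ± 2.16, SD, n = 5). In percentiles of the fold enrichments of the same library, these peaks had a median of 95.9 in TAM (85.9 to 97.9) and 80.9 in EtOH (37 to 98.1). Fold enrichment is relative to each library's own input and was not tested between libraries. The strongest promoter peaks lay at different TSSs in different libraries. The site printed above as the KLF13 promoter site, chr15:31617825-31619506, starts upstream of the first exon, and was called in 4 EtOH and all 6 TAM libraries. At this site alone, the strongest peaks had fold enrichments of 8.19 to 11.9 in EtOH and 6.19 to 14 in TAM, so that the ranges overlap. Of the further promoter sites of KLF13, 1 lay 133 bp and 1 lay 967 bp upstream of internal TSSs.

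KLF10 had a promoter peak in 3 EtOH and all 6 TAM libraries. Its promoter peaks in EtOH had fold enrichments of 6.79 to 7.81, and those in TAM 6.07 to 12.1, so that the ranges overlap. A further site of KLF10, called in 1 EtOH and 5 TAM libraries, had its summit 378 bp downstream of the TSS, just past the promoter window. All 5 EtOH lists hold a peak at this further site.

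KLF5 had a promoter peak in all 6 TAM libraries with fold enrichments of 9.08 to 16.3 (median percentile 93.7), and in 1 EtOH library with 9.77. Its main promoter site, chr13:73632657-73633558, has its summit 61 bp downstream of an internal TSS, in an exon outside the coding sequence. That summit is from replicate 3 of S100A9-Flag, and the strongest peaks of the other 5 TAM libraries at the site lay 224 to 322 bp upstream of the TSS. The site was called in 7 libraries, 1 of them EtOH, and 4 EtOH lists hold a peak there when weaker peaks are counted. A further promoter site 1272 bp upstream of the annotated gene start, chr13:73627754-73628079, was called in 5 libraries, all of them TAM, and 2 EtOH lists hold weaker peaks there.

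KLF6 and KLF7 each had a promoter peak in 5 of 6 TAM libraries and in no EtOH library at the threshold, with weaker peaks in 3 EtOH lists at the KLF6 site below and in 2 and 1 at the sites of KLF7. That of KLF6, chr10:3827044-3827914, had its summit 28 bp downstream of the TSS in an exon outside the coding sequence. KLF7 has its promoter sites at internal TSSs, and with the annotated gene start as the only TSS it had no promoter peak in any library. KLF3 had a promoter peak in 4 TAM libraries, with fold enrichments of 7.10 to 8.01 and percentiles of 37.8 to 50, near the middle of their libraries. KLF4 had one in 2 EtOH and 3 TAM libraries, SP1 in 3 TAM libraries, and KLF2 in 1.

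KLF9 had no promoter peak in any library, although it had peaks in all 6 TAM libraries. Its most frequent site, chr9:73033670-73036080, lay upstream, with the summit 4655 bp from the TSS, and was called in 2 EtOH and all 6 TAM libraries. The fold enrichments there were 7.75 and 7.73 in the 2 EtOH libraries that called it and 9.08 to 14.3 in TAM. All 5 EtOH lists hold a peak there, and the peaks of the other EtOH lists are below the threshold. The site is broad (2411 bp), and the summits of single libraries were up to 1548 bp from that of the site. When any overlap of a peak with the promoter window was counted in place of the summit, no gene was left without a promoter peak.

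**Figure D4:**
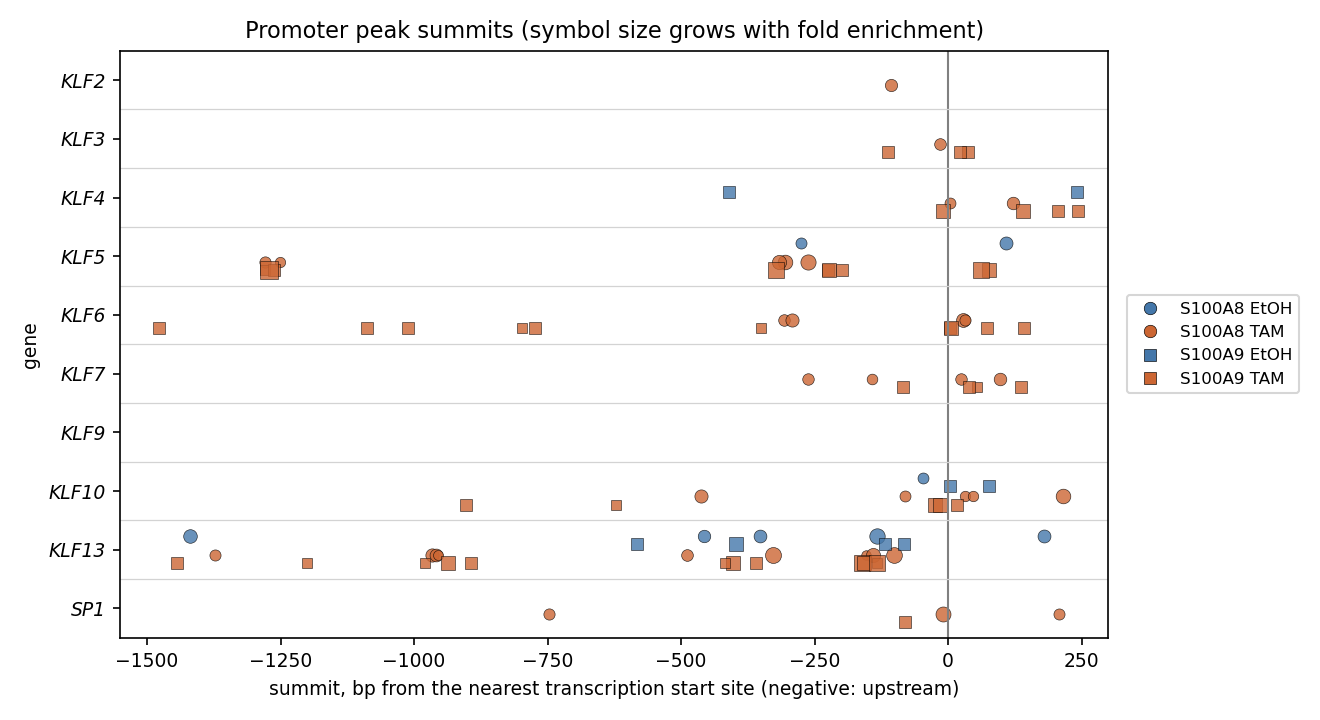
Position of each promoter peak summit, in bp from the nearest TSS of the gene, for S100A8-Flag (circles) and S100A9-Flag (squares) in EtOH (blue) and TAM (orange), 1 symbol per peak with its size growing with fold enrichment. KLF9 has none, and KLF13 has promoter peaks of both proteins in both treatments.

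Peaks of single libraries were merged into sites with peaks in at least 2 replicates of a condition and pooled over the 4 conditions, which gave 30322 union sites, of which 47 lay near the 10 genes. KLF13 had 10, KLF6 9, KLF9 and SP1 5 each, KLF2, KLF3, and KLF5 4 each, and KLF4, KLF7, and KLF10 2 each. In 41 of the 47, the nearest TSS of a protein-coding gene was that of the KLF or SP1 gene itself. The other 6 were nearest to AP1M1 (KLF2 window), TLR10 (KLF3), SMC5 (KLF9), and SP7, AMHR2, and PCBP2 (SP1). In all, 13 of the 47 (27.7%) lay in a promoter of any protein-coding gene, against 34.3% of all union sites. Without replicate 3 of S100A9-Flag in TAM, 37 sites near the 10 genes were left.

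No EtOH library called 33 of the 47 sites (70.2%), against 68.9% of all union sites. For 21 of these 33 (44.7% of the 47, against 34.2% of all union sites), at least 1 EtOH list holds a peak below the threshold, so that an absent call is often a weaker peak. All 6 TAM libraries called 9 sites (19.1%), against 14.3%. A larger share of TAM than of EtOH libraries called 46 (97.9%), against 98.7%, and 24 (51.1%) were called in at least 2 of 3 TAM libraries of each protein, against 43.3%. The exception to the direction was the KLF4 promoter site, which 2 of 5 EtOH and 2 of 6 TAM libraries called. With weaker peaks counted, 2 EtOH and 5 TAM lists hold a peak at that site. These shares lie near those of all sites.

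Of the 33 sites without an EtOH call, 3 were called in all 6 TAM libraries, or 6.38% of the 47 sites, against 4.69% of all union sites. They were noted after their values were seen, and lie downstream of KLF6 (chr10:3797199-3797610) and upstream of KLF9 (chr9:73032979-73033558 and chr9:73053524-73053812). No deposited peak of any EtOH library overlapped the KLF6 site, whereas 2 and 1 EtOH libraries had weaker peaks at those of KLF9. The KLF6 site lies 25 kb downstream of the TSS, over a noncoding gene, with fold enrichments of 4.59 to 10.3.

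**Figure D5:**
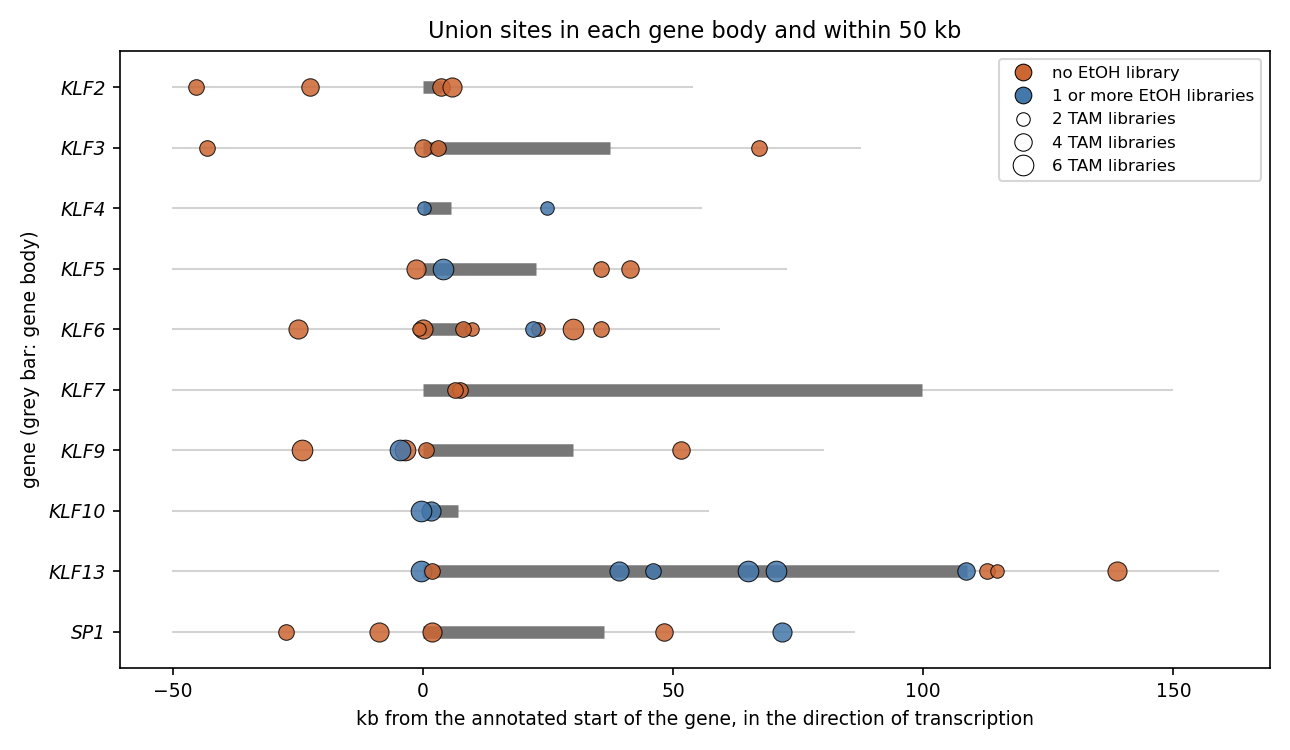
Union sites along each gene, in kb from its annotated start in the direction of transcription, with the gene body as a grey bar and 50 kb to either side as a thin line; symbols grow with the number of TAM libraries that call a site and are blue where an EtOH library also calls it. KLF13 has sites along its body that EtOH libraries also called, whereas the 4 sites each of KLF2 and KLF3 are all without an EtOH call.

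For SP1, no union site lay in the promoter of the gene. The site called in most libraries, chr12:53845536-53845934, was 70.7 kb downstream of an SP1 TSS and 110 bp from a TSS of PCBP2, an RNA-binding protein gene, and was called in 3 EtOH and 5 TAM libraries. KLF13 had a site in its body, chr15:31689152-31689856, in an intron and 3816 bp downstream of an internal TSS, called in 2 EtOH and all 6 TAM libraries. In all, 4 EtOH lists hold a peak at this intron site. The KLF2 site beyond the end of the gene, chr19:16441278-16441629, was called in 5 libraries, all of them TAM, and 2 EtOH lists hold weaker peaks there.

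The distance between S100A8-Flag and S100A9-Flag summits was measured in TAM. At the 40 sites near the 10 genes that both proteins called in TAM, the summits of their strongest peaks were a median of 28 bp apart, against 33 bp at the 23525 such sites genome-wide. The upper quartile was 88.75 bp near the 10 genes and 65 bp genome-wide.

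Motifs were counted in the windows of 201 bp around the summits of union sites, on both strands. Each count is given beside the share of all union site windows, either of the same class or over both classes. Outside promoters, 13 of 34 sites near the 10 genes (38.2%) held an AP-1 motif, against 34.9%. In promoters, an AP-1 motif was in 1 of 13 (7.69%), against 8.34%. The boxes that KLF/SP proteins bind were in few of the windows. A GC box was in 2 of 13 promoter sites (15.4%), against 23.1%, and in 3 of 34 others (8.82%), against 3.96%. A CACCC box was in 3 of 13 (23.1%), against 7.11%, and in 2 of 34 (5.88%), against 5.67%. Over both classes, 9 of 47 (19.1%) held either box, against 15.8%.

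Over all 47 windows, the ETS motif was in 4 (8.51%), against 13.2%, and the CEBP motif in 5 (10.6%), against 11.8%. By class, the CEBP motif was in 2 of 13 promoter sites (15.4%), against 5.95%, and in 3 of 34 others (8.82%), against 14.9%. The STAT motif was in 6 (12.8%), against 5.67%. The CTCF motif was in 2 (4.26%), against 11.2%, and the CREB motif in none, against 1.19%. With so few sites, 1 site more or fewer moves a share by over 2%.

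Of the 17 other KLF and SP genes, 16 were tested and 10 had more peaks in TAM at an adjusted p of at most 0.05 (15 by limma), against 65.3% of all tested genes (83.8% by limma). None passed by exact permutation per 10000 peaks (3 at an unadjusted p of at most 0.05, as were 4109 of the 18764 genes, and 2 passed by limma, as did 9.23% of all tested genes). The 3 are KLF11, KLF12, and SP9, named after their values were seen, which had no EtOH peak and could only come out higher, and KLF11 and KLF12 are also among the 10. KLF16, SP3, SP4, and SP6 had a promoter peak in all 6 TAM libraries, as did 15.4% of all genes. KLF14 had no peak in any library. The windows of SP7 and SP1, of KLF17 and KLF18, and of SP2 and SP6 overlap, and these pairs share peaks. Of the 10 genes for coregulators that bind KLF or SP proteins, 7 had more peaks in TAM in number (10 by limma), against the same 65.3% (83.8%) of all tested genes, although their median difference per 10000 peaks was −0.531, against 0.0775 over all tested genes. CTBP2 and EP300 had a promoter peak in all 6 TAM libraries, against the same 15.4%. CTBP2 encodes a corepressor bound by KLF3 and EP300 an acetyltransferase.

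The genes with peak numbers most like the mean of the 10 genes over the 11 libraries, by Euclidean distance of log2(peaks + 1), were CNN1 (0.999), KIF7 (1.03), SEPHS1 (1.04), ARHGAP11A (1.07), and KLF1 (1.07). Each had 0 or 1 peak in every EtOH library and 3 to 7 in every TAM library.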

How the data were processed

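Flag ChIP-seq peak lists of 11 libraries were used, from S100A8-Flag and S100A9-Flag cells in EtOH or TAM. The authors aligned reads to hg19 with Bowtie2 and called peaks against input with MACS2 (versions not stated). Each deposited list gives the fold enrichment of a peak as a ratio over input, −log10 p and −log10 q values, and the summit as an offset from the start of the peak. Read numbers were not available, so that the depth of a library, and the precision it gives, are unknown. The deposited lists reach down to a −log10 q of 1.3.

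Peaks with a −log10 q of at least 7 were assigned by summit to GENCODE 44 genes lifted to GRCh37, within the gene body or 50 kb of it. Genes with no peak in any library were not tested. Peaks per gene, as log2(peaks + 1), and peaks per 10000 peaks of the library were compared by exact permutation of libraries, within protein for the treatment and within treatment for the protein (200 arrangements each), and p values were adjusted after Benjamini and Hochberg over 18764 genes. The code was tested on simulated data. There, limma recovered fewer of the genes made to differ than first required, and the requirement was lowered after this was seen. Sites are overlapping peaks (1 bp) of at least 2 replicates, pooled over the 4 conditions, and a site takes its summit from the peak that ranks highest by fold enrichment within its own library. Python 3.11.15, numpy 2.4.6, scipy 1.17.1, matplotlib 3.10.9, pysam 0.24.0, and limma 3.58.1 in R 4.3.3 were used.

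Values are given for each of the 10 genes. The rule for named sites was the promoter site and the distal site called in most libraries of each gene, of which only some are given with coordinates; other sites were chosen after their values were seen. The genes and the lists beside them were chosen with earlier results of the series known. Alternatives concerned the q threshold, the number of peaks per library, the window, the assignment to the nearest TSS, the filter, the promoter window, the replicates a site needs, the test (limma), the log scale, replicate numbers as blocks, and each library left out in turn. Where this left a single S100A8-Flag EtOH library, limma was used, and the lone library is assumed to vary like those of the other groups. Expression and RNA polymerase data were not analysed here.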

Additional observations from a re-analysis of the deposited data

Results flagged for a closer look

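Of 10 groups of values, each over the 5 EtOH or the 6 TAM libraries of both proteins, 3 held a library far from the others, where chance gives about 1 in 20. Replicate 3 of S100A9-Flag in TAM had 75 peaks near the 10 genes, and the other TAM libraries had 37 to 47 (gap to the nearest over the whole range 0.737, above Dixon's 95% critical value for 6 libraries). It also held the longest list, with 40735 peaks, which did not pass the limit (0.591), and its 18.4 peaks per 10000 did not stand apart. Replicate 1 of S100A9-Flag in EtOH had a peak at 3 of the 10 genes, where the other EtOH libraries had 4 each, and a promoter peak at 3, where the others had 2 each. Both of these differ from the rest by 1 gene, and with equal values elsewhere any such difference passes the limit.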

How the results depend on the processing

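The number of the 10 genes with more peaks in TAM was 7, and 5 to 10 without 1 library at a time; the 2 omissions that left a single S100A8-Flag EtOH library used limma and gave 9 and 10, and the other 9 gave 5 or 6, where 80.4 and 80.7% and 44.8 to 51% of all tested genes were called, against 65.3% with all libraries. It was 3 at q ≤ 1e-10 (KLF6, KLF9, and SP1, where 32% of all genes were called). With every deposited peak it was 8 (71.5%), where KLF4 and KLF7 were gained and KLF13 was lost. The number was 3 with a window of 10 kb (21.5%), 10 by limma (83.8%), 7 with unlogged numbers (65.3%), and 7 without a filter (61%). It thus moved in the direction of the share of all genes or stayed. It was 0 with peaks given to the nearest TSS only (8 genes at an unadjusted exact permutation p of at most 0.05), where none of 16065 genes passed (smallest adjusted p 0.0575; 6235 at an unadjusted p of at most 0.05) and the median difference was 1.51 over the 10 genes and 0.764 over all tested genes, against 1.61 and 1.36, and 0 with the 1853 strongest peaks of each library (0 of the 10 genes and 163 of 12747 at an unadjusted p of at most 0.05, and none of the 12747 passed). There, the differences of KLF10 (−0.0833), KLF13 (−1.09), and SP1 (−0.0833) reversed, KLF4 and KLF7 had no peak left and so no value, and the median of all tested genes was 0 against 1.36. With every deposited peak, the differences of KLF9 (0.786), KLF10 (0.592), and KLF13 (0.697) were smaller, as were those of KLF3 (0.959) and KLF7 (0.431) at q ≤ 1e-10. KLF2 (1.9), KLF5 (1.6), KLF6 (2.35), and SP1 (1.74) also had smaller differences with every deposited peak, and KLF3 (2.15), KLF4 (1.49), and KLF7 (1.87) larger ones. By exact permutation, the adjusted p was then 0.0319 for KLF4, 0.042 for KLF7, and 0.106 for KLF13. The cause of these differences was not tested.

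For peaks per 10000, 0 of the 10 genes passed, and 0 without any 1 of the TAM or S100A9-Flag EtOH libraries. With limma on all libraries, 2 passed (KLF2 and KLF13, against 9.23% of all genes). KLF2 could only come out higher, and its call needed both S100A8-Flag EtOH libraries. Without replicate 1 or 2 of these, the genes that passed changed. The limma difference was 1.2 in each case for KLF2, and −5.21 and −6.94 for KLF13. The difference of KLF13 was −6.94 to −5.21 and that of KLF2 0.94 to 1.45 without 1 library. With every deposited peak, at q ≤ 1e-10, and with the 1853 strongest peaks, they were −3.73, −9.39, and −10.8 for KLF13 and 0.426, 1.56, and 0.899 for KLF2. Between the proteins, 0 passed under all 20 alternatives run.

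With the replicate block (5 pairs, 32 arrangements), 0 of the 10 genes passed in the number of peaks (smallest adjusted p 0.106) and 0 in peaks per 10000 (0.416); 0.0625 is the smallest p that 32 arrangements give, so that no gene could have an unadjusted p of at most 0.05. Correlations of libraries with the same replicate number, after removing group means, were −0.0219 to 0.0102 between treatments and −0.0316 to 0.00929 between proteins, and the numbers were not taken to pair libraries.

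Promoter calls of the 10 genes in TAM (39) were 32 to 39 without 1 library (64 to 66%, against 39.2 to 42.5% of all genes). They were 30 at q ≤ 1e-10 (50%, against 29.1%) and 53 with every deposited peak (88.3%, against 60.4%). With the 1853 strongest peaks they were 8 (13.3%, against 4.91%). Those in EtOH (11) were 8 to 11 without 1 library (20 to 22.5%, against 10.3 to 11.9%). They were 4 at q ≤ 1e-10 (8%, against 4.16%), 26 with every deposited peak (52%, against 35.6%), and 7 with the 1853 strongest (14%, against 5.94%). Sites near the genes (47, of which 33 without an EtOH call) were 37 to 47 (25 to 35) without 1 library, 28 (23) at q ≤ 1e-10, 105 (47) with every deposited peak, 4 (1) with the 1853 strongest, 109 (87) from at least 1 replicate, 22 (13) from every replicate, and 29 (18) with a window of 10 kb. A stricter or looser threshold, window, or number of replicates admits fewer or more sites by construction.

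Without read numbers, a longer list cannot be told from a deeper library, and every count of peaks, promoter calls, or sites shares this limit. Peaks per 10000 remove the length of the list but rest on 5 to 11 peaks per EtOH library near the 10 genes.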
